A study of Homo sapiens with 7 samples.

Results

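Between 480 and 600 min of continuous blue light, H4 cells carrying opto-PKR changed little at the level of single transcripts. Opto-PKR fuses the light-clustering protein Cry2Olig to the kinase PKR, and H4 is an established human line labelled as neuroglioma. The comparison is of 2 libraries out of 7, the one collected after 600 min and the one collected after 480 min. The other 5 libraries (0, 60, 120, 240 and 720 min) serve here to place a gene's level in time. All 7 groups carried Cry2Olig-PKR, were grown on fibronectin in glass-bottom wells, and differed, per the labels, in the minutes of light alone; the 0 min library is the unlit one. Wells kept dark for 480 or 600 min were not analysed here, and nor were lit cells lacking the fusion, so light and time in the plate cannot be told apart. The labels do not say whether the line was 1 clone. There is 1 library per time, so no difference below has a replicate check and none has a p-value.

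PKR phosphorylates the translation initiation factor eIF2, which slows general protein synthesis and lets a few messages, above all that of the transcription factor ATF4, be translated more. This is the integrated stress response (ISR). ATF4 and its partners then raise genes for amino acid synthesis, for tRNA charging and for feedback that restores translation. PKR is best known as a sensor of double-stranded RNA in antiviral defence, and it also feeds into NF-kB signalling. Messages of immediate early and inflammatory genes are short-lived and usually rise and fall again within hours.

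The values are transcript counts from CEL-Seq2, which tags the 3′ end of each RNA with a molecular identifier, so a level is not affected by gene length. The rows of the 480 min table run alphabetically and end with NME1-NME2, so genes named after it were left out at both times. Within that range the 600 min library held 4589220 transcripts and the 480 min library 5266123. The libraries had 2.20 and 2.38 reads per molecular identifier at 600 and 480 min. Levels are in CPM, counts scaled to a library of 1000000 transcripts of the genes in range, after edgeR's TMM scaling. Of 11087 genes in range, the 7181 that reached 20 counts at 600 or 480 min were compared. For each, the ratio of 600 over 480 min has an exact binomial 95% interval, which covers counting error only. The counts are corrected for molecules that share an identifier, and the interval leaves out the error this adds. It is therefore too narrow for abundant genes, increasingly so at higher counts. "Higher" or "lower beyond counting error" means that this interval excluded equal levels. Log2 ratios carry a prior count of 2 and folds do not.

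The label of the line was set against cell type markers. The astroglial markers GFAP, FABP7 and CHI3L1 had 0 counts in both libraries, and AQP4 had 1 count at 600 min and 0 at 480 min. The adhesion receptor CD44, which glioma cells and many others carry, had 5278 counts at 600 min and 5904 at 480 min. NES had 2 counts in both libraries, and ALDH1L1 and BCAN each had 0 at 600 min and 3 at 480 min. After the range, the 600 min library held 6494 counts of VIM, 412 of SOX9, 139 of SOX2, 99 of SLC1A3 and 0 of S100B. Of the immune markers CD3D and CD3E were at 0 in both, while CD68 had 69 counts at 600 min and 65 at 480 min, ITGAM 48 and 72, LYZ 22 and 17, and FCER1G 14 and 12. The endothelial markers CDH5, KDR and EMCN were at 0 in both, and FLT1 had 11 counts at 600 min and 13 at 480 min. The summed level of the 14 epithelial markers was 494 CPM at 600 min, against 464 CPM at 480 min. Nearly all of it came from KRT18, ESRP1 and KRT8, with 1515, 507 and 195 counts at 600 min and 1604, 601 and 148 at 480 min, whereas EPCAM, CDH1, CLDN3, GRHL2, KRT5, KRT14 and KRT19 had at most 3 counts in either library.

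Few genes moved far. At 600 min 69 genes of 7181 (0.961%) stood at least 2-fold from their level at 480 min, 32 of them higher (0.446%) and 37 lower (0.515%). This balance belongs to the limit of 20 counts: with 50 or more counts in either library 6 genes were higher and 20 lower, and with no limit 256 were higher and 172 lower. Beyond counting error 1188 genes (16.5%) were higher and 1660 (23.1%) lower, and the median log2 ratio was -0.03, with 3855 of the 7181 ratios below 0. Intervals narrow as counts grow, and those of abundant genes are too narrow, so such genes pass this mark with smaller changes. The other steps of the series had larger shares at 2-fold. These were 3.14% for 60 over 0 min, 2.87% for 120 over 60 min, 2.13% for 240 over 120 min, 5.38% for 480 over 240 min and 1.81% for 720 over 600 min. The steps are not equally long, and neighbouring steps share a library. Among genes with at least 200 counts in both libraries of a step, the SD of the log2 ratio was 0.245 for 600 over 480 min, and it lay between 0.265 and 0.399 for the other 5 steps. Of the 69 genes, 43 had under 50 counts in their better library, where the counting error is widest. Only AKT1S1 and MBNL2 had 1000 or more.

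**Figure D1:**
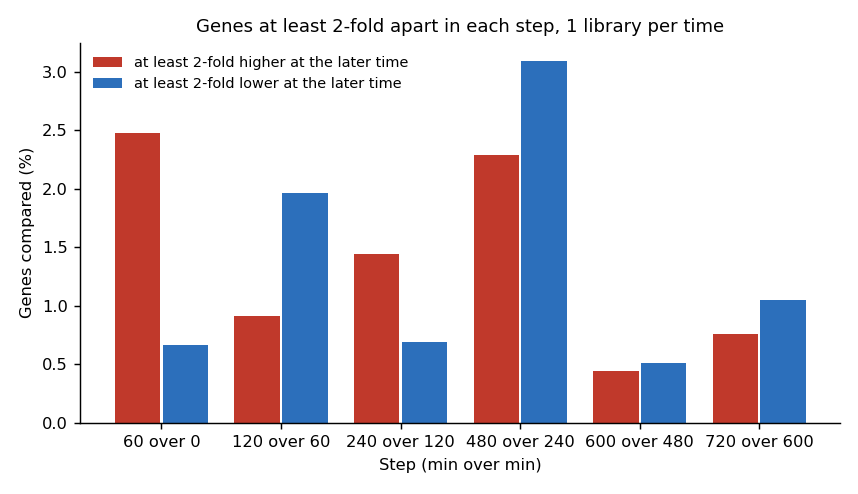
Share of the genes compared (%, y axis) that stood at least 2-fold higher (red) or lower (blue) at the later time in each step of the series (x axis, minutes over minutes), 1 library per time. The step of 600 over 480 min has the lowest share in both directions, 0.446% higher and 0.515% lower.

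**Figure D2:**
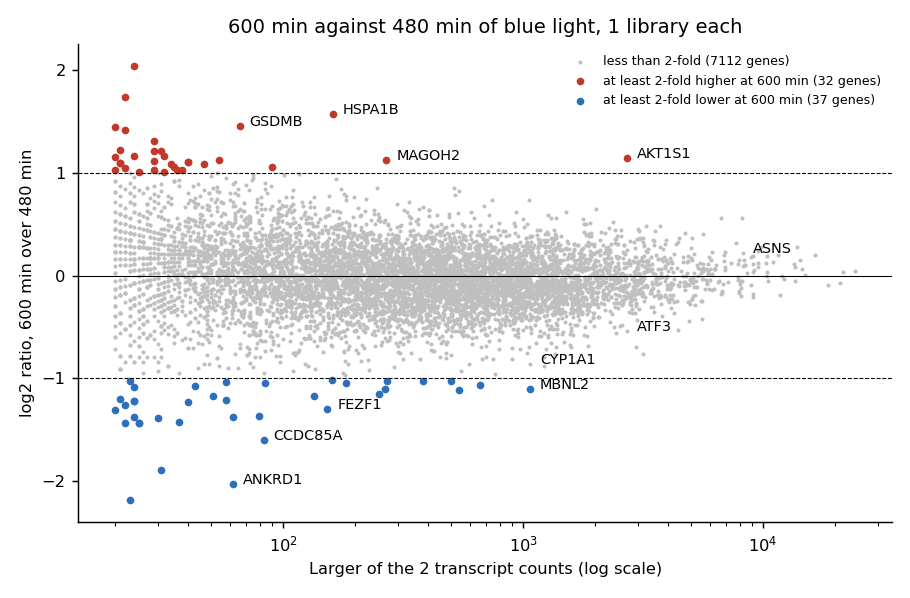
Log2 ratio of 600 over 480 min (y axis) against the larger of the gene's 2 transcript counts (x axis, log scale), 1 point per gene, with 2-fold marked by dashed lines. The 32 higher (red) and 37 lower (blue) genes lie mostly at low counts, and AKT1S1 and MBNL2 stand out at high counts.

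Genes that had changed early mostly moved the opposite way between 480 and 600 min. Genes were grouped by 240 over 0 min, 2 libraries that the ratio of 600 over 480 min does not use. Of 7249 genes compared there, 10.7% were at least 2-fold higher at 240 min and 6.99% lower. The 747 higher genes that could also be followed late had a median log2 ratio of -0.28 at 600 over 480 min. Of them 627 (83.9%) lay below 0, against 54.0% of all 7031 genes compared at both pairs of times. Of these 747 genes 0 were 2-fold higher at 600 min and 19 (2.54%) were 2-fold lower, against 0.327% and 0.427% of all 7031. The 440 genes that had been 2-fold lower at 240 min had a median of 0.25. Of them 342 (77.7%) lay above 0, against 46.0% of all 7031, with 11 (2.50%) at 2-fold higher and 1 (0.227%) at 2-fold lower. The 5844 genes within 2-fold had a median of -0.02. They made up most of the genes that changed beyond counting error, 1006 of the 1173 higher and 1256 of the 1652 lower. Genes that had stood high at 240 min were thus mostly lower at 600 than at 480 min, and genes that had stood low mostly higher, in nearly all cases by less than 2-fold.

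The return was partial. Over the 0 min library, the genes raised early had a median log2 ratio of 1.43 after 240 min of light. After 480, 600 and 720 min it was 1.14, 0.80 and 0.50. The genes lowered early had -1.23, -0.99, -0.70 and -0.39 at the same 4 times. These medians share the 0 min library, and the first of each was fixed by the grouping. The late change was not proportional to the early one among raised genes. The 31 genes with a log2 ratio of 3 or more at 240 min had a late median of -0.28, the 104 between 2 and 3 had -0.40, and the 612 between 1 and 2 had -0.27. Among lowered genes, the 15 below -2 had a late median of 0.70 and the 425 between -2 and -1 had 0.24.

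**Figure D3:**
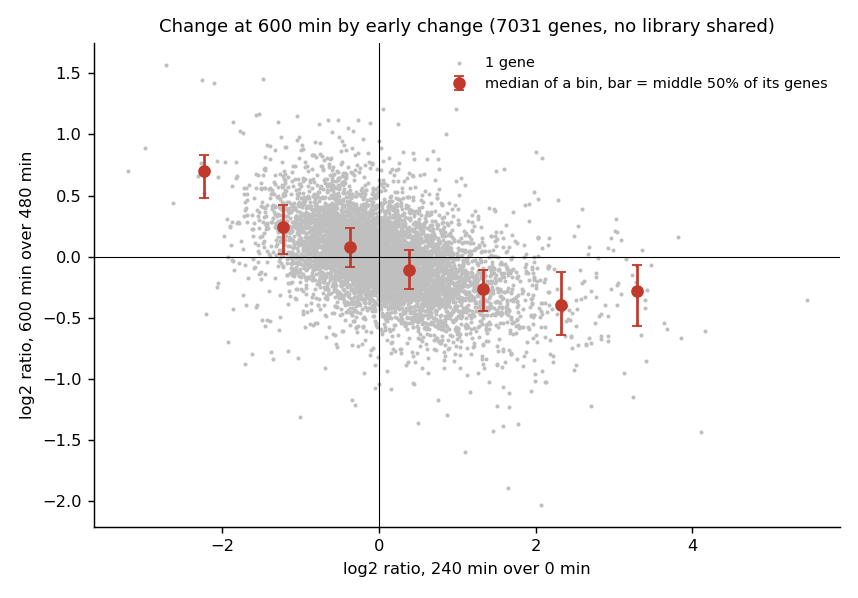
Log2 ratio of 600 over 480 min (y axis) against that of 240 over 0 min (x axis), 1 grey point per gene, with the median of 7 bins in red and bars over the middle 50% of each bin's genes. The bin medians fall from 0.70 for genes lowest at 240 min to -0.40 and -0.28 for those highest.

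The ISR transcription factors and regulators went both ways, while ATF4, DDIT3 and CHAC1 held their levels. The list's median log2 ratio at 240 over 0 min was 0.57, so its median rise early was less than 2-fold. Of 25 listed genes 18 were in range and compared; 4 were higher beyond counting error (22.2%), 3 lower (16.7%), shares near those of all genes, and the median log2 ratio was -0.07. ATF4 itself had 1069 CPM at 600 min and 1092 CPM at 480 min, a fold of 0.979 (95% interval 0.942 to 1.02). DDIT3, which encodes the stress factor CHOP, had 184 CPM at 600 min and 181 CPM at 480 min, a fold of 1.02 (0.926 to 1.12). CHAC1, a glutathione-degrading enzyme induced through ATF4, had 594 CPM at 600 min and 602 CPM at 480 min, a fold of 0.986 (0.936 to 1.04). All 3 intervals include equal levels, and the widest of them, that of DDIT3, ends at 0.926 and 1.12. Over the whole series CHAC1 stood at 94.0, 337, 534, 838, 602, 594 and 824 CPM at 0, 60, 120, 240, 480, 600 and 720 min, so its lowest lit levels after 120 min were these neighbouring libraries.

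Other members separated. ATF3, a stress factor that represses many of its targets, had 1644 counts at 600 min and 2707 at 480 min, a fold of 0.688 (0.647 to 0.732). CEBPB and CEBPG, dimer partners of ATF4, had folds of 0.819 (0.760 to 0.882) and 0.832 (0.782 to 0.885). ATF5, another factor translated under eIF2 phosphorylation, went the other way, with 665 CPM at 600 min and 485 CPM at 480 min, a fold of 1.37 (1.30 to 1.45). DDIT4, an inhibitor of mTORC1 also known as REDD1, had a fold of 1.12 (1.07 to 1.17). EIF2AK2, the gene of PKR itself, had 237 CPM at 600 min and 189 CPM at 480 min, a fold of 1.25 (1.15 to 1.37), and whether transcripts of the opto-PKR construct are counted under it remains unstated in these sources. EIF2AK3, the gene of the related kinase PERK, had 88 counts at 600 min and 109 at 480 min, a fold of 0.915 (0.683 to 1.22). TRIB3, SESN2 and PPP1R15A are named after the range and have no value at 480 min.

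ATF4 dimers bind a composite C/EBP-ATF element, and the windows below show where it lies before 2 of these genes. The promoters are from RefSeq (GRCh38.p14), 250 bases up to the start of the gene, with a match to TGATGNAA on either strand in capitals. CHAC1 held its level at 600 min and ASNS, described next, was higher. The window of ATF3 also holds a match and ATF3 was lower, so these 2 genes do not stand for all that carry the element.
CHAC1 (chr15:40953221-40953470, plus strand): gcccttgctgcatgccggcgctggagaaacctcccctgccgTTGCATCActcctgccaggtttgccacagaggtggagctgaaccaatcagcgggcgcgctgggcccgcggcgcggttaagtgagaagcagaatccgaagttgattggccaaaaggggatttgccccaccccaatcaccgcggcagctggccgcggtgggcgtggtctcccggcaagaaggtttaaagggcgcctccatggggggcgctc
ASNS (chr7:97872409-97872658, minus strand): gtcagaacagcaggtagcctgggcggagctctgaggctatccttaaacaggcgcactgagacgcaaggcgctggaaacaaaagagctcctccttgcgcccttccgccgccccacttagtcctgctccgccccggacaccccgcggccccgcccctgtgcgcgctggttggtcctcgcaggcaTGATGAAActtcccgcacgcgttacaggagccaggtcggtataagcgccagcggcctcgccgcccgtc
The match begins 209 bases before the start of CHAC1, on the strand opposite to the gene, and 68 bases before that of ASNS. Among all 27305 RefSeq promoter windows of the same length 3.19% hold such a match. Only 68.4% of the genes compared could be matched to a window by symbol, too few to set a motif's share among them against their changes.

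The enzymes that ATF4 raises did not move as one. Of 22 listed amino acid and one-carbon enzymes 17 were compared, 5 higher and 5 lower beyond counting error (29.4% each, against 16.5% and 23.1% of all genes), with a median log2 ratio of 0.06. ASNS, asparagine synthetase, had 8247 counts at 600 min and 8042 in the deeper 480 min library. These are 1815 and 1562 CPM, a fold of 1.16 (1.13 to 1.20), whose interval is too narrow at such counts. CTH, which makes cysteine from cystathionine, had 234 CPM at 600 min and 284 CPM at 480 min, a fold of 0.826 (0.762 to 0.894). ALDH18A1, the first enzyme of proline synthesis, had a fold of 0.767 (0.650 to 0.903). Of 20 cytosolic tRNA synthetases 13 were compared, 3 higher (23.1%) and 4 lower (30.8%), with a median of -0.03; GARS and DARS had folds of 0.885 (0.858 to 0.913) and 0.844 (0.811 to 0.879). The median of the 17 enzymes over 0 min was 1.09 at 480 min and 1.06 at 600 min, and that of the 13 synthetases was 0.66 and 0.54. EIF4EBP1, which restrains cap-dependent translation, had 270 CPM at 600 min and 222 CPM at 480 min, a fold of 1.22 (1.12 to 1.32). FGF21, a secreted hormone induced by ATF4, had 62 counts at 600 min and 57 at 480 min, a fold of 1.23 whose interval (0.846 to 1.80) includes equal levels; it had 0 counts at 0 and 60 min.

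Genes of the endoplasmic reticulum changed by small amounts. Of 24 listed chaperones and folding enzymes 18 were compared, 6 higher (33.3%, against 16.5% of all genes) and 2 lower (11.1%, against 23.1%) beyond counting error, with a median log2 ratio of 0.08. HSPA5, the chaperone BiP, had 1549 CPM at 600 min and 1424 CPM at 480 min, a fold of 1.09 (1.05 to 1.12). CALR, calreticulin, had 542 CPM at 600 min and 414 CPM at 480 min, a fold of 1.31 (1.24 to 1.39), and HYOU1 had a fold of 1.22 (1.11 to 1.34). The level of CALR at 600 min was still below the 606 CPM of the unlit library. HERPUD1, which serves degradation from the endoplasmic reticulum, had 573 CPM at 600 min and 601 CPM at 480 min, a fold of 0.953 (0.904 to 1.00), and its interval includes equal levels. Among 11 genes of that degradation and of translocation, 3 were higher (27.3%) and 1 lower (9.09%).

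HSPA5 and CALR carry the ER stress response element, CCAAT and CCACG with any 9 bases between them, in the same windows, and it is shown in capitals as the landmark that these chaperone promoters share.
HSPA5 (chr9:125241344-125241593, minus strand): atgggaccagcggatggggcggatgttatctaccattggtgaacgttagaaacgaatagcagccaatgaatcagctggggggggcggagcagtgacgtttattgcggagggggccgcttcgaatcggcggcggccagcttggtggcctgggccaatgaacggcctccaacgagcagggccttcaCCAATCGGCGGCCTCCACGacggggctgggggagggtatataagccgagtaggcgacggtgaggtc
CALR (chr19:12938359-12938608, plus strand): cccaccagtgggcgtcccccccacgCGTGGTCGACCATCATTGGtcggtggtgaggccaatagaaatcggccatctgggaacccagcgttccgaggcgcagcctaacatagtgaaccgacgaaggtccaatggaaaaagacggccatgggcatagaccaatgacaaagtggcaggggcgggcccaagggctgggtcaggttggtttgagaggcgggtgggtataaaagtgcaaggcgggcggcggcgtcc
The match begins 66 bases before the start of HSPA5, and 225 bases before that of CALR on the opposite strand. It occurs in 22 of the 27305 windows, 0.0806%.

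Immediate early and inflammatory genes were next. Of 22 listed immediate early factors 17 were compared, with a median log2 ratio of -0.26. Beyond counting error 8 were lower (47.1%, against 23.1% of all genes) and 3 higher (17.6%, against 16.5%). Their median at 240 over 0 min was 2.15. Of the 747 genes raised at least 2-fold early 50.9% were lower, a share near that of this list. FOSL2, a subunit of the AP-1 factor, had 30.4 CPM at 600 min and 56.5 CPM at 480 min, a fold of 0.537 (0.436 to 0.660). KLF6, a zinc finger factor induced by stress and serum, had 115 CPM at 600 min and 189 CPM at 480 min, a fold of 0.608 (0.546 to 0.677). The unlit library had 84.6 CPM of KLF6 and the 240 min library 530 CPM, so most of its decline was over before 480 min. KLF4 and KLF10 had folds of 0.628 (0.549 to 0.718) and 0.640 (0.587 to 0.697). Among 11 genes of MAPK feedback 4 were lower (36.4%, against 23.1% of all genes) and 1 higher, with a median of -0.29. DUSP1, a phosphatase that switches off MAP kinases, had a fold of 0.745 (0.635 to 0.873), whereas DUSP5, of the same family, had 1.27 (1.09 to 1.49).

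Of 17 listed NF-kB subunits and feedback genes 11 were compared, with a median log2 ratio of -0.27. Beyond counting error 7 were lower (63.6%, against 23.1% of all genes) and 0 higher, and all 11 log2 ratios lay below 0. The list had itself been raised early, with a median of 1.48 at 240 over 0 min. Among the 747 genes raised at least 2-fold early, 50.9% were lower, with a median of -0.28. BIRC3, an inhibitor of apoptosis that NF-kB induces, had 195 CPM at 600 min and 285 CPM at 480 min, a fold of 0.683 (0.628 to 0.743). NFKBIE, an inhibitor of NF-kB, and CYLD, a deubiquitinase that dampens it, had folds of 0.731 (0.617 to 0.865) and 0.781 (0.712 to 0.855). Of 23 listed cytokines and chemokines 18 were compared, 10 lower (55.6%) and 4 higher (22.2%, against 16.5% of all genes), with a median of -0.34. Their median at 240 over 0 min was 2.45. IL24, a cytokine of the IL-10 family, had 40.1 CPM at 600 min and 61.4 CPM at 480 min, a fold of 0.653 (0.541 to 0.786). CCL20, which attracts cells bearing CCR6, had 36 counts at 600 min and 66 at 480 min, a fold of 0.618 (0.400 to 0.941). IL11, of the IL-6 family, was on the other side, with 57 counts at 600 min and 42 at 480 min, a fold of 1.54 (1.01 to 2.35).

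**Figure D4:**
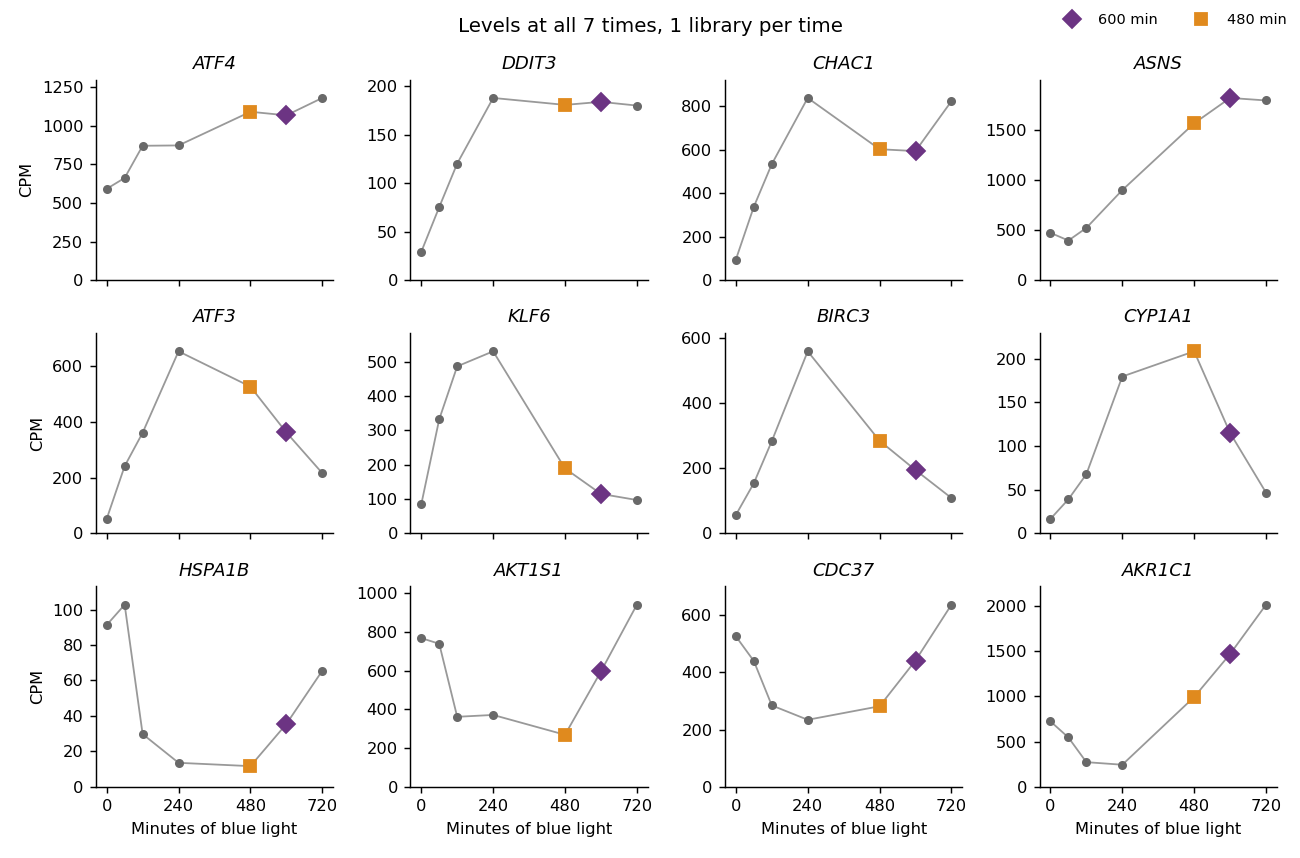
CPM (y axes, each from 0) over minutes of blue light (x axes) for 12 genes, 1 library per time, with 600 min as purple diamonds and 480 min as orange squares. Top row: ATF4, DDIT3 and CHAC1 are level between 480 and 600 min and ASNS is higher at 600 min; middle row: ATF3, KLF6, BIRC3 and CYP1A1 are lower at 600 min; bottom row: HSPA1B, AKT1S1, CDC37 and AKR1C1 are higher at 600 min.

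The list with the lowest median among those with at least 6 genes compared was that of YAP targets, genes raised by the mechanically regulated coactivator YAP. All but 1 of the 13 listed were in range and 12 were compared, with a median log2 ratio of -0.44. Beyond counting error 9 were lower (75%, against 23.1% of all genes) and 1 higher. The list had itself been raised early, with a median of 1.52 at 240 over 0 min. Of the 747 genes raised at least 2-fold early 50.9% were lower, with a median of -0.28. ANKRD1, a muscle ankyrin repeat protein and standard YAP reporter, had 12 counts at 600 min and 62 at 480 min, a fold of 0.219 (0.108 to 0.411), the lowest log2 ratio among genes with 50 or more counts at either time. AREG, an EGF receptor ligand, had 30 counts at 600 min and 65 at 480 min, a fold of 0.523 (0.327 to 0.818). LATS2, the kinase that inhibits YAP, had 82.5 CPM at 600 min and 145 CPM at 480 min, a fold of 0.570 (0.502 to 0.646), and AJUBA, which binds LATS kinases, had 0.618 (0.568 to 0.671). Relative to the unlit library the list's median log2 ratio was 1.17, 0.57 and 0.19 at 480, 600 and 720 min.

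The aryl hydrocarbon receptor is a ligand-activated factor that raises detoxifying enzymes. Of 8 listed 6 were compared, 4 lower and 1 higher (23.1% and 16.5% among all genes), with a median of -0.39. Their median at 240 over 0 min was 1.26, and of the genes raised early 50.9% were lower. CYP1A1, a cytochrome and the receptor's best known target, had 522 counts at 600 min and 1072 at 480 min, a fold of 0.552 (0.496 to 0.613). It stood at 16.6, 39.0, 67.7, 179, 208, 115 and 46.6 CPM over the 7 times, so its highest library was that of 480 min. CYP1B1 and the receptor AHR itself had folds of 0.738 (0.705 to 0.772) and 0.747 (0.716 to 0.779). ALDH3A1, an aldehyde dehydrogenase, was higher, with 185 counts at 600 min and 156 at 480 min, a fold of 1.34 (1.08 to 1.67). Among 8 genes of the ID family and TGF-beta feedback 4 were lower (against 23.1% of all genes) and 0 higher: ID2, which like other ID proteins blocks differentiation factors, and ID3 had folds of 0.689 (0.605 to 0.785) and 0.783 (0.724 to 0.846).

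**Figure D5:**
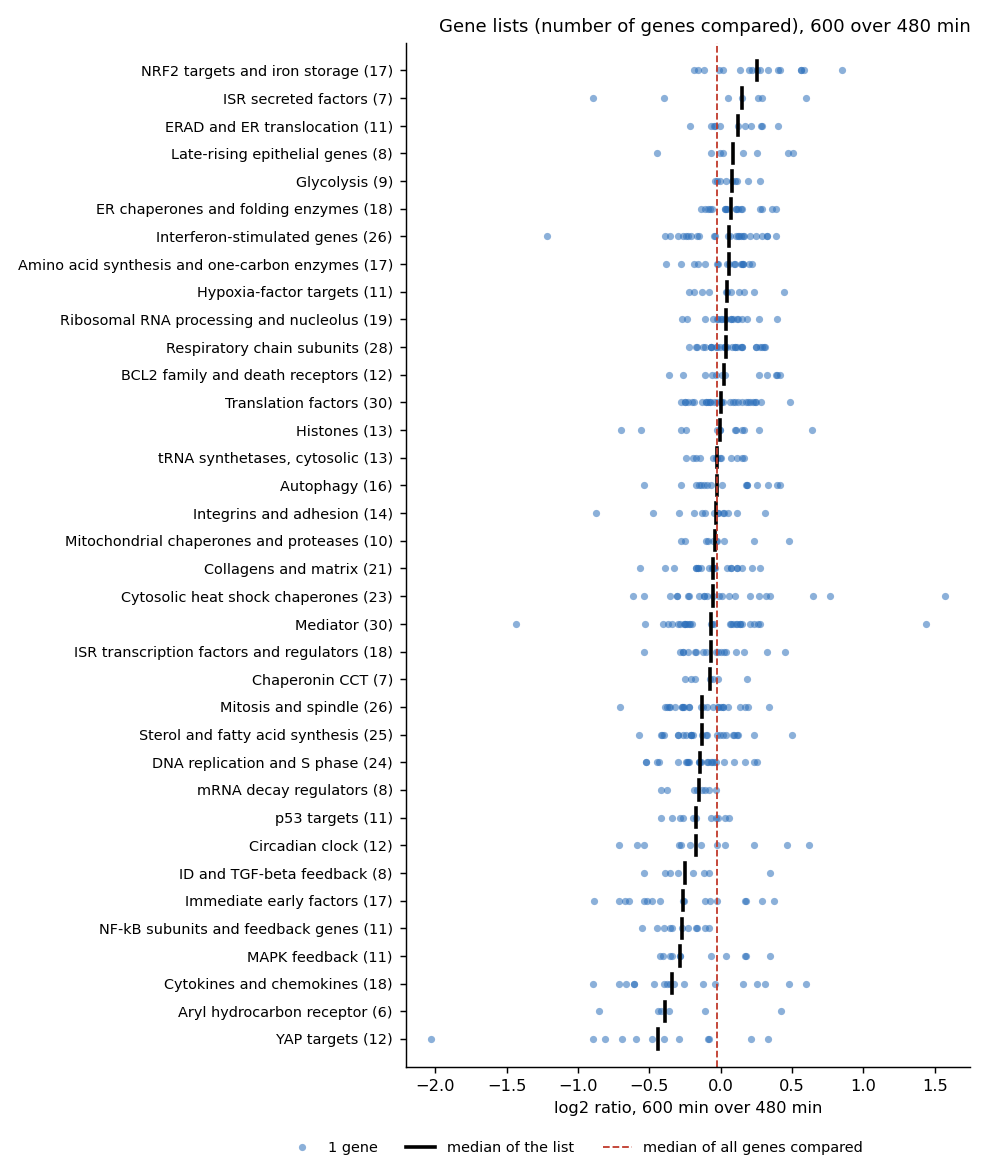
Log2 ratio of 600 over 480 min (x axis) for each gene compared (blue points) in the lists with at least 6 such genes (y axis, number in brackets), with the list's median as a black bar and the median of all 7181 genes as a red dashed line. YAP targets, aryl hydrocarbon receptor genes and cytokines lie lowest, at -0.44, -0.39 and -0.34, and NRF2 targets highest, at 0.26.

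Oxidative stress genes stood highest among the lists with at least 6 genes compared. NRF2 is a factor that raises antioxidant and detoxifying genes. Of 22 listed targets and iron storage genes 17 were compared, with a median log2 ratio of 0.26. Beyond counting error 12 were higher (70.6%, against 16.5% of all genes) and 3 lower. The list had itself been lower early, with a median of -0.58 at 240 over 0 min. Of the 440 genes at least 2-fold lower early 33.4% were higher, with a median of 0.25. AKR1C1, an aldo-keto reductase, had 1466 CPM at 600 min and 991 CPM at 480 min, a fold of 1.48 (1.43 to 1.53). It had 722 CPM in the unlit library and 243 CPM at 240 min, so at 480 min it was already above the unlit level. AKR1C2 and AKR1C3 had folds of 1.48 (1.43 to 1.53) and 1.51 (1.22 to 1.86), but these genes are close copies and their counts may not be independent. FTH1, the ferritin heavy chain, had a fold of 1.15 (1.12 to 1.17). The intervals of FTH1, AKR1C1 and AKR1C2 are too narrow at their high counts. The same list holds metallothioneins, small proteins that bind zinc and copper: MT1X had 246 counts at 600 min and 154 at 480 min, a fold of 1.81 (1.47 to 2.23), and MT2A had 1.20 (1.14 to 1.26). MTF1, the zinc-sensing factor that drives metallothioneins, had a fold of 1.38 (1.21 to 1.59).

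The cytosolic heat shock chaperones divided. Of 27 listed 23 were compared, 8 higher (34.8%, against 16.5% of all genes) and 11 lower (47.8%, against 23.1%), with a median of -0.06. Abundant genes pass this mark with smaller changes, and the shares were not matched for counts. At 2-fold 1 was higher and 0 lower (0.446% and 0.515% among all genes). HSPA1B, an inducible HSP70, had 161 counts at 600 min and 60 at 480 min, a fold of 3.04 (2.25 to 4.16), the highest log2 ratio among genes with 50 or more counts at either time. It stood at 91.3, 103, 29.8, 13.5, 11.7, 35.4 and 65.5 CPM over the 7 times, below its unlit level at both 480 and 600 min. HSPA1A, a near-identical copy whose reads may be shared with it, had 43.6 CPM at 600 min and 25.4 CPM at 480 min, a fold of 1.71 (1.37 to 2.15). CDC37, which hands kinases to HSP90, had 441 CPM at 600 min and 281 CPM at 480 min, a fold of 1.57 (1.46 to 1.68). On the other side HSPA4L, an HSP110 family member, had 57 counts at 600 min and 100 at 480 min, a fold of 0.646 (0.458 to 0.903), and of 7 subunits of the chaperonin CCT 4 were lower and 1 higher, CCT8 at 0.840 (0.807 to 0.875).

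AKT1S1 had the largest log2 ratio in either direction among genes with 1000 or more counts at either time. It encodes PRAS40, a component of mTORC1 that inhibits it. It had 2711 counts at 600 min and 1385 at 480 min, a fold of 2.22 (2.08 to 2.37). Over the series it stood at 769, 740, 362, 372, 269, 597 and 942 CPM, so its lowest library was that of 480 min and at 720 min it was above the unlit level. Other genes among the 15 highest had far fewer counts. GSDMB, a gasdermin, had 66 counts at 600 min and 26 at 480 min, a fold of 2.88 (1.80 to 4.72). HOXB4, a homeobox factor, had 90 and 48 counts, a fold of 2.12 (1.48 to 3.08). MAGOH2, a copy of the exon junction gene MAGOH, had 269 and 139 counts at 600 and 480 min and a fold of 2.19 (1.78 to 2.71), uncertain because the copies may share reads. CD74, the invariant chain of MHC class II, and ANPEP, aminopeptidase N, had folds of 2.07 (1.29 to 3.38) and 1.94 (1.5 to 2.52).

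Among the 15 lowest, MBNL2, a regulator of splicing, was the abundant one, with 438 counts at 600 min and 1070 at 480 min, a fold of 0.464 (0.414 to 0.519). It stood at 69.8 CPM in the unlit library and reached its highest level, 208 CPM, at 480 min. IPMK, which makes inositol polyphosphates, had 219 counts at 600 min and 540 at 480 min, a fold of 0.459 (0.391 to 0.539). MTUS1, a microtubule-associated protein, had 277 and 659 counts at 600 and 480 min, a fold of 0.476 (0.412 to 0.549). FEZF1, a zinc finger factor of forebrain development, had 54 and 153 counts, a fold of 0.400 (0.288 to 0.549), and LINC00673, a long non-coding RNA, had 99 and 251 counts, a fold of 0.447 (0.350 to 0.566). EYA1, MNS1, ARL14 and CCDC85A had folds between 0.314 and 0.436. ANKRD20A4 belongs to a family of near-identical genes and its fold of 0.463 is uncertain.

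Lists of growth and metabolism had medians between -0.17 and 0.08, and their counts are to be read against 16.5% higher and 23.1% lower among all genes. Of 28 respiratory chain subunits 13 were higher (46.4%) and 6 lower (21.4%) beyond counting error, with a median log2 ratio of 0.04; COX6B1 and ATP5G1 had folds of 1.24 (1.17 to 1.31) and 1.24 (1.15 to 1.34). Of 9 glycolytic genes 5 were higher and 0 lower, ALDOA at 1.21 (1.16 to 1.27). The 30 translation factors had a median of 0.00, with 11 higher and 10 lower; EIF5A, the hypusinated elongation factor, had 717 CPM at 600 min and 512 CPM at 480 min, a fold of 1.40 (1.33 to 1.47). Of 26 genes of mitosis 14 were lower (53.8%) and 4 higher. Of 24 genes of DNA replication 7 were lower (29.2%), a share near that of all genes, and 1 was higher (4.17%, against 16.5%). Their median was -0.14, with 19 log2 ratios below 0, against 3855 of all 7181. ECT2, which drives cytokinesis, and MCM6, a subunit of the replicative helicase, had folds of 0.612 (0.547 to 0.684) and 0.696 (0.619 to 0.782). Of 25 sterol and fatty acid genes 10 were lower (40.0%) and 1 higher; MSMO1, a sterol oxidase of cholesterol synthesis, had 321 counts at 600 min and 487 at 480 min, a fold of 0.747 (0.647 to 0.862). Of 11 p53 targets 5 were lower (45.5%) and 0 higher, among them BTG2 at 0.747 (0.652 to 0.855).

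Interferon-stimulated genes, which double-stranded RNA would also raise, went both ways. Of 26 compared 10 were higher (38.5%, against 16.5% of all genes) and 7 lower (26.9%, against 23.1%), with a median of 0.06. The log2 ratios ran from -1.21 to 0.39, with 14 above 0 and 12 below. EIF2AK2, given above, was among the higher genes. On the lower side IFIT2 had 21 counts at 600 min and 58 at 480 min, a fold of 0.410 (0.236 to 0.686), and IRF9 had 0.762 (0.656 to 0.884). Matrix genes were mixed as well, with 3 of 21 higher and 5 lower, shares near those of all genes; LUM, lumican, had 929 counts at 600 min and 1561 at 480 min, a fold of 0.674 (0.621 to 0.732). The 8 mesenchymal markers in range had a summed level of 1285 CPM at 600 min, against 1513 CPM at 480 min. Among them COL1A1, COL3A1, DCN, LUM and FN1 are also matrix genes compared here, so the sum is not separate from the matrix result. The part of these markers in that result was not tested. In bulk RNA, fewer cells of a kind and less RNA per cell cannot be told apart. Of 30 Mediator subunits 4 were higher (13.3%) and 11 lower (36.7%). The 2 that passed 2-fold rest on few counts: MED18 had 20 counts at 600 min and 7 at 480 min, a fold of 3.24 (1.31 to 9.06), and CDK8 had 7 and 25, a fold of 0.317 (0.116 to 0.754).

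Some genes moved between 480 and 600 min in the direction of their early change. Of all 7031 genes compared at both pairs of times, 16.7% were higher and 23.5% lower at 600 than at 480 min beyond counting error. Of the 747 genes raised early 20 (2.68%) were higher, against 380 (50.9%) lower. Of the 440 lowered early 16 (3.64%) were lower, against 147 (33.4%) higher. The genes named here from these sets were chosen after their values were seen. KRT17, a keratin, had stood higher in each later library, with 109, 159, 221 and 246 CPM at 240, 480, 600 and 720 min and a log2 ratio of 0.47 at 600 over 480 min. CXCL2, a chemokine, did likewise, with 254, 362, 405 and 431 CPM and a log2 ratio of 0.16. In others the step reversed a return that had begun before 480 min. IL32, an inflammatory cytokine, had 89.0, 62.3, 113 and 183 CPM at the same 4 times, with a log2 ratio of 0.86 at 600 over 480 min. KRT7, another keratin, and KLF2, a zinc finger factor, were likewise lower at 480 than at 240 min and had log2 ratios of 0.46 and 0.37 at 600 over 480 min. Of the genes lowered early, MAB21L3 had 204, 325, 182 and 369 CPM and a log2 ratio of -0.84. KCNQ1OT1, a long non-coding RNA that silences its imprinted neighbours, had 552, 861, 598 and 739 CPM and a log2 ratio of -0.53. Both were therefore higher at 480 and 720 min than at 600 min. The 8 late-rising epithelial genes compared are a list drawn up from these samples and so no independent evidence. Beyond counting error 1 was higher (12.5%, against 16.5% of all 7181 genes) and 0 lower (against 23.1%). Their median log2 ratio over 0 min was 2.85 at 480 min and 3.22 at 600 min.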

How the data were processed

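RNA from 7 illumination times was sequenced by an adaptation of CEL-Seq2, per the labels' protocols. The authors deposited expected counts (estimated counts that need not be whole) of reads, molecular identifiers and transcripts; the transcript counts equal the identifier counts corrected for collisions among 4096 possible identifiers. BWA and hg19 are named in the submitters' processing notes, with versions, annotation and the counting of reads that match several genes not given in the sources used here. From every table the column headed 4, the primer named in the labels, was used and rounded to whole counts, and the other 1995 barcode columns were not used. ERCC rows were dropped; the 480 min table listed none. Of 7059 genes with at least 10 counts in the other 6 libraries, 0 were missing from the range at 480 min.

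Scaling used TMM factors over all 7 libraries in range (edgeR 4.0.16, R 4.3.3), with factors of 0.990 at 600 min and 0.978 at 480 min. No test was run, since each time has 1 library. Intervals are exact binomial 95% intervals (scipy 1.17.1) and treat collision-corrected counts as plain counts. They are therefore too narrow wherever collisions are frequent, increasingly so at higher counts. The strongest effect is on the 13 and 17 genes over 3800 identifiers at 600 and 480 min. The calculation was tested on simulated data. Genes, lists and groupings were chosen with earlier results of these data known. Named genes were the 15 highest and 15 lowest ratios among genes with at least 50 counts, up to 4 members per list by size of ratio, core ISR genes, the 6 most abundant genes, and genes of an earlier account; exceptions are stated. Gene symbols are those of the tables; promoters come from RefSeq and share only the symbol with the counts.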

Additional observations from a re-analysis of the deposited data

How the results depend on the processing

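The counts at 2-fold depended on how many weakly counted genes entered. With at least 50 counts in either library, 6 genes were higher and 20 lower at 600 min, so 23.1% of calls were higher, against 46.4% with at least 20. With at least 10 counts 71 were higher and 67 lower, and with no filter 256 and 172, 59.8% of calls higher. Read counts in place of transcripts gave 66 higher and 54 lower, of which 28 and 31 were genes called from transcripts. Total scaling, RLE size factors, identifier counts, a prior count of 0.5 and leaving out genes over 3800 identifiers gave 31 to 41 higher and 35 to 43 lower. The late median of genes raised early stayed between -0.25 and -0.29, and that of genes lowered early between 0.22 and 0.30, over all alternatives. Of 189 genes named by the rule, 10 changed sign under some alternative, none with a log2 ratio beyond 0.21. With identifier counts 28 of the 189 had a log2 ratio outside the counting interval given here, and with read counts 30. The intervals therefore do not cover the choice of counting measure. No paired analysis was possible because each time has 1 library. Every ratio is one of 2 libraries, and a difference between cultures or libraries cannot be told apart from one between times.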

Other observations

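Of 12 clock genes compared, 8 had log2 ratios below 0, against 3855 of all 7181 genes. Beyond counting error 6 were lower and 2 higher (23.1% and 16.5% among all genes), with a median log2 ratio of -0.18. BHLHE41, a repressor of the clock, had 100 counts at 600 min and 187 at 480 min, a fold of 0.606 (95% interval 0.470 to 0.776). The activator ARNTL and the repressor CRY1 had folds of 0.664 (0.578 to 0.762) and 0.687 (0.597 to 0.790). CSNK1E, a kinase that marks clock repressors for destruction, was higher, with 206 CPM at 600 min and 134 CPM at 480 min, a fold of 1.54 (1.39 to 1.70).

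Members of the BCL2 family, which sets the threshold of apoptosis, included the protective genes BCL2 and BCL2L1 at folds of 1.34 (1.08 to 1.65) and 1.31 (1.21 to 1.41), and BCL2L2, also protective, at 0.776 (0.691 to 0.871). Of 12 compared, 4 were higher (33.3%, against 16.5% of all genes) and 2 lower (16.7%, against 23.1%) beyond counting error. Of 16 autophagy genes 5 were higher (31.2%) and 4 lower (25.0%, near the share of all genes). ATG5, needed to lipidate LC3, had 343 counts at 600 min and 564 at 480 min, a fold of 0.689 (0.601 to 0.789). The protease ATG4B had a fold of 1.32 (1.17 to 1.47). H2AFX, the histone variant phosphorylated at DNA breaks, had 240 counts at 600 min and 174 at 480 min, a fold of 1.56 (1.28 to 1.91). The integrin gene ITGB8 had 585 and 1218 counts at 600 and 480 min, a fold of 0.544 (0.492 to 0.601).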
